A study of Mus musculus with 4 samples.

Results

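The subject is the set of 10 mouse genes of major histocompatibility complex (MHC) class I antigen presentation: H2-D1, H2-K1, H2-T23, H2-Q4, H2-Q7, B2m, Tap1, Tap2, Tapbp and Nlrc5. They were taken by symbol from the gene list of the count matrices, and all 10 were found among its 55450 genes. The set was chosen by pathway and selected on measured values too, since a difference between the brain libraries had already been seen in the UMI levels of H2-D1 and H2-K1; their brain values are therefore given as a description. The study profiled single cells of wild-type mice with droplet 3′ RNA sequencing in 4 libraries: intestine, untreated and after 1 week of NPs, and brain, untreated and after 2 months of NPs. The labels do not spell out NPs, and each group holds 1 library, so a library and its treatment cannot be told apart and no test between groups was possible. The protocol names BALB/c mice aged 5 weeks and ICR mice aged 6 months without saying which strain gave which tissue, or how many animals went into a library.

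Class I molecules show peptides made inside a cell to T cells and natural killer cells at its surface. Peptides cut by the proteasome are pumped into the endoplasmic reticulum by the Tap1 and Tap2 transporter, tapasin (Tapbp) helps load them onto a heavy chain, and the heavy chain leaves for the surface with its small partner chain, β2-microglobulin (B2m). H2-K1 and H2-D1 encode the classical, highly polymorphic heavy chains, H2-T23, H2-Q4 and H2-Q7 encode non-classical ones (H2-T23 gives Qa-1, a ligand of natural killer receptors), and Nlrc5 is a transcriptional coactivator of class I genes. Interferons raise the pathway, and in healthy brain it is low in neurons and glia and higher in vessels and immune cells.

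All 10 are protein-coding genes, and all but B2m and Nlrc5 lie in or beside the H2 complex of chromosome 17. On GRCm38, H2-K1 spans chr17:33996017-34000347 on the minus strand and H2-D1 spans chr17:35262730-35267499 on the plus strand. Tapbp (chr17:33915899-33929292), Tap1 (chr17:34187553-34197225) and Tap2 (chr17:34203527-34216321) lie beside H2-K1. H2-Q4 (chr17:35379617-35385290) and H2-Q7 (chr17:35439155-35443773) follow H2-D1, and H2-T23 (chr17:36029773-36032855, minus strand) lies further on. B2m spans chr2:122147686-122153083 and Nlrc5 spans chr8:94434356-94527272.

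The 250 bases before the start of 4 genes are shown because they carry the short elements known to serve class I promoters, and because H2-D1 and H2-K1 were both higher after NPs in brain. The sequences are RefSeq promoters of GRCm38.p6, printed in the gene's own direction, and 8 of the 10 members had an entry. Positions count from the RefSeq start just after each window, which for H2-D1 lies inside the wider gene span given above. Capitals mark exact matches, on either strand, to a kappaB-type element (the run of 10 capitals in H2-D1 and H2-K1), an interferon-response type core (AANNGAAA, here often as its reverse complement) and a CRE-like core (TGACG). The windows are chr17:35262844-35263093 for H2-D1 (plus strand), chr17:34000348-34000597 for H2-K1 (minus strand, the nearer of 2 entries to the annotated start), chr17:35438905-35439154 for H2-Q7 (plus strand) and chr2:122147437-122147686 for B2m (plus strand).
H2-D1: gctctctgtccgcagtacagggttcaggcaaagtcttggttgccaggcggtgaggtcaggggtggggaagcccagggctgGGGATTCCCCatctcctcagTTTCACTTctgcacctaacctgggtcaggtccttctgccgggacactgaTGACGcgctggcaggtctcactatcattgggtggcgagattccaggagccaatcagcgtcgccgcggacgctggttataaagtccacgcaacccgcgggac
H2-K1: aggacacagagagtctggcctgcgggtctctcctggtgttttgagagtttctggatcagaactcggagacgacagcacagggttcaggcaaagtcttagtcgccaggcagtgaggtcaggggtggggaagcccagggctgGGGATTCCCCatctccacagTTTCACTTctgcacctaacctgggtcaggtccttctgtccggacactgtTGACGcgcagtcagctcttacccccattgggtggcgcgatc
H2-Q7: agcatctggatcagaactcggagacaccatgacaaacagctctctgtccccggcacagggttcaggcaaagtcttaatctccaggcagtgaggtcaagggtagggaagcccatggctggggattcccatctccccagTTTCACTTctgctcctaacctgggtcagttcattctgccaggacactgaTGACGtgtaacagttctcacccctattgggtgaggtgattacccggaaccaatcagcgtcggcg
B2m: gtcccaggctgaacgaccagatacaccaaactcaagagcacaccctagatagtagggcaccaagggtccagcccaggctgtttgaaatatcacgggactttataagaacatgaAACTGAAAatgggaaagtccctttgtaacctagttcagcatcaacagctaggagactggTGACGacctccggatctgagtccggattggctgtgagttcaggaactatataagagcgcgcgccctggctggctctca

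The kappaB-type element was found in H2-D1, beginning at position -170 from the start, and in H2-K1, at -110, and in none of the other 6 members searched. That exact string is present in 0.0740% of 27025 promoter windows of the same length. Variants of the element were not searched, so other members may hold one. The interferon-type core was found in 6 of the 8 members (21.6% of all windows), among them H2-D1 at -150, H2-K1 at -90 and B2m at -137. The CRE-like core was also found in 6 of 8 (17.9% of all windows), and CCAAT, on either strand and not capitalised above, in 8 of 8 (34.5% of all windows). H2-D1 and H2-K1 hold the first 3 elements in the same order and at the same spacing, shifted by 60 bases relative to their RefSeq starts. The printed H2-Q7 window holds the interferon-type and CRE-like cores without an exact kappaB-type match, though it holds the near match ggggattcccat. A match here describes letters in the reference, not a bound site, and the reference is built on C57BL/6J, a strain the protocol does not name.

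The 4 matrices held 11754 to 20368 cell barcodes and 63889853 to 127772838 UMIs (unique molecular identifiers, 1 per captured transcript). After filters for depth, mitochondrial content and doublets, 10556 to 16855 cells a library remained, with a median of 2464 UMIs per cell in untreated intestine, 6277 in intestine after NPs, 4996 in untreated brain and 4614 in brain after NPs. Barcodes above 20% mitochondrial UMIs made up 16.7% and 46.5% of the 2 intestinal matrices and under 1% of the brain ones. Pairs of libraries shared 0.275% to 0.486% of the smaller library's kept barcodes. Cell classes were rebuilt by clustering and named from marker genes, so each name stands for an "X-like" class; names, and differences resting on them, may change with the markers. A class was compared where both libraries held at least 50 of its cells. Levels are UMIs of a gene per 1000000 UMIs of a class in a library (CPM), a scale per gene: 3′ tags are counted once per molecule whatever the gene's length, yet capture differs between genes, so levels are compared between cells and not between genes. All intervals are 95% intervals for counting error only.

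H2-D1 levels differed widely between cell types. In untreated brain, H2-D1 stood at 3479.9 CPM in T or NK cells (95% Poisson interval 3350 to 3613) and 3214 CPM in neutrophils (2979 to 3464), at 1751 CPM in endothelial cells, 513 CPM in microglia and 183 CPM in ependymal cells. Astrocytes (83.8 CPM, 80.1 to 87.8), neuroblasts or immature neurons (83.6 CPM, 74.0 to 94.1) and oligodendrocytes (67.2 CPM, 51.4 to 86.4) made up the lowest group. The intervals of the first 2 classes overlapped, and so did those of the last 3. Lymphocytes, neutrophils and endothelial cells lay above microglia, and microglia above neural cells, in the library after NPs too: H2-D1 was at 4981 CPM in neutrophils, 4916 CPM in T or NK cells, 3554 CPM in endothelial cells, 1314 CPM in microglia, 382 CPM in ependymal cells, 199 CPM in astrocytes and 141 CPM in neuroblasts. H2-K1 was ordered differently in neutrophils, which lay below microglia for it (276 and 308 CPM untreated, 613 and 662 CPM after NPs). In untreated intestine, absorptive epithelium held the highest H2-D1 level among classes of at least 50 cells (3321 CPM), above goblet cells (2034 CPM), T cells (1983 CPM), macrophages or monocytes (1860 CPM) and plasma cells (1575 CPM). After NPs the intestinal order began instead with fibroblasts (4527 CPM, 347 cells, against 46 cells in the untreated library), macrophages or monocytes (4119.6 CPM) and T cells (3852 CPM), with absorptive epithelium at 1733 CPM.

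**Figure D1:**
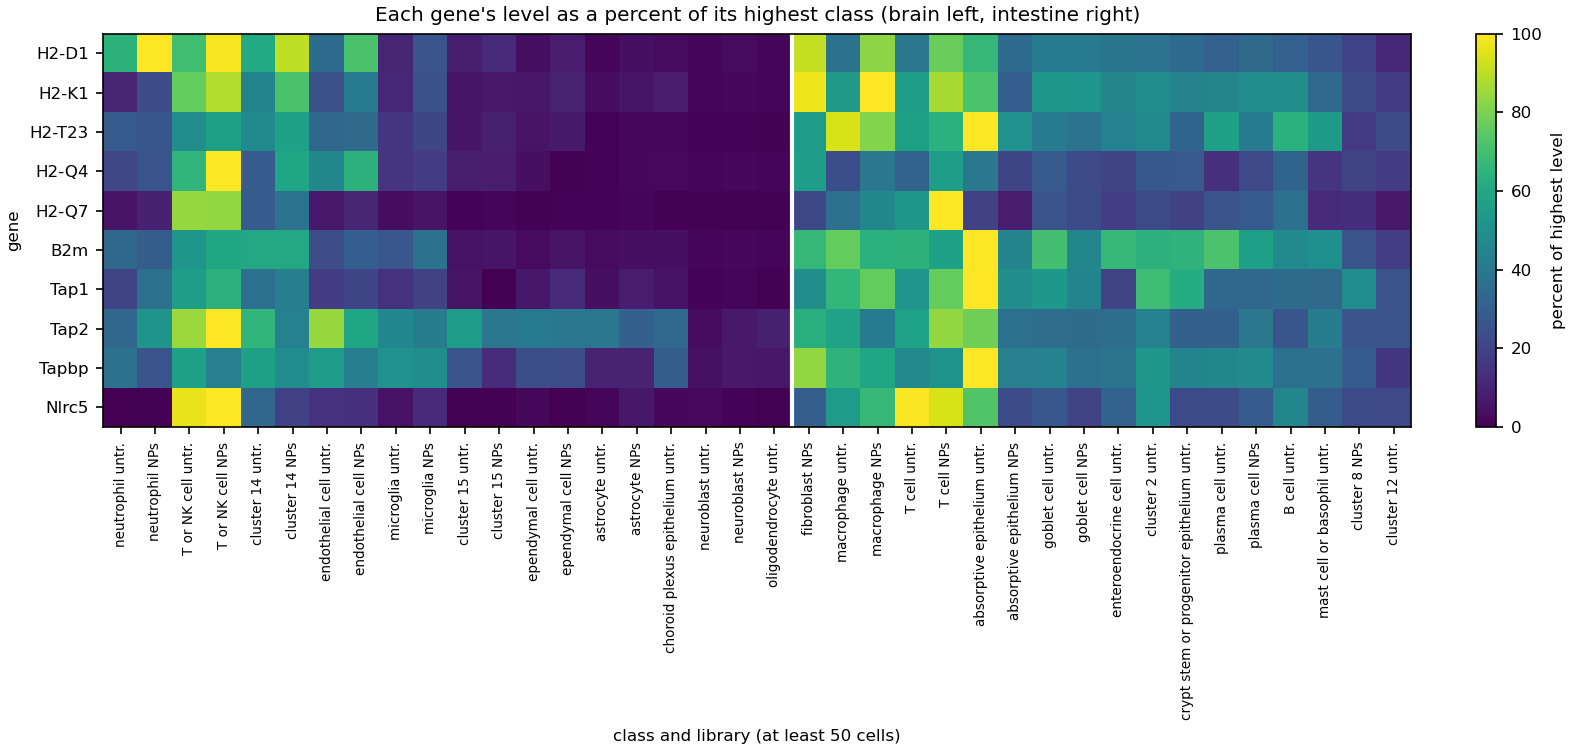
Level of each of the 10 genes (rows) in each class by library sum with at least 50 cells (columns, 38 in all), coloured as the level in percent of that gene's own highest column, with brain to the left of the white line and intestine to the right. Absorptive epithelium of the untreated intestine and immune classes of both tissues hold the highest levels of most members, and neuroblasts and oligodendrocytes the lowest.

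The other chains and the helpers spread over the same cell types with different leaders. B2m was highest in untreated absorptive epithelium (4445 CPM) and lowest in oligodendrocytes (76.1 CPM) and neuroblasts (82.4 CPM) of untreated brain. H2-T23 was likewise highest in untreated absorptive epithelium (460.4 CPM), as were Tap1 (159.9 CPM) and Tapbp (317 CPM). H2-Q7 and Nlrc5 were instead highest in T lymphoid classes: H2-Q7 at 544 CPM in intestinal T cells after NPs and 457 CPM in brain T or NK cells, and Nlrc5 at 38.3 CPM in brain T or NK cells after NPs and 38.1 CPM in untreated intestinal T cells. H2-Q4 and Tap2 had their highest levels in brain T or NK cells after NPs, at 242 CPM and 114 CPM. All 10 genes were thus lowest, or listed at 0, in brain classes. No Nlrc5 UMI was seen in 489671 UMIs of brain neutrophils after NPs, which allows up to 7.53 CPM by the exact interval.

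In brain, H2-D1 was higher after NPs in each of the 7 named classes compared. In microglia, the resident macrophages of the brain, it went from 513 to 1314 CPM, a ratio of 2.56 (95% interval 2.51 to 2.61). In astrocytes it went from 83.8 to 199 CPM (2.37, 2.24 to 2.51), and in ependymal cells, which line the ventricles, from 183 to 382 CPM (2.09, 1.77 to 2.46). In endothelial cells the level of 1751 CPM stood against 3554 CPM (2.03, 1.95 to 2.12). The 3 remaining classes had smaller ratios: 1.69 in neuroblasts (83.6 and 141 CPM, 1.43 to 1.99), 1.55 in neutrophils (3214 and 4981 CPM, 1.42 to 1.69) and 1.41 in T or NK cells (3479.9 and 4916 CPM, 1.35 to 1.47). None of the 7 intervals reached 1, and 6 of the 7 ratios passed the 1.5-fold used here to call a difference; T or NK cells did not. Types with fewer than 50 cells in at least 1 library were also higher after NPs, with choroid plexus epithelium at 141 and 320 CPM, fibroblasts at 699 and 1988 CPM and oligodendrocytes at 67.2 and 176 CPM. Oligodendrocyte H2-D1 rests on 61 and 62 UMIs. Of its level, an estimated 14.6 and 106 CPM can be free microglial RNA, by the step described below.

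H2-K1 was also higher after NPs in all 7 named brain classes, by less than H2-D1 in 6 of them. The ratio was 2.15 in microglia (308 and 662 CPM, 2.10 to 2.21), 1.65 in astrocytes (93.6 and 154 CPM, 1.56 to 1.74) and 1.66 in endothelial cells (672 and 1115 CPM, 1.55 to 1.78). Neutrophils had the highest H2-K1 ratio, 2.22 (276 and 613 CPM, from 59 and 300 UMIs, 1.67 to 2.99). It was 1.59 in neuroblasts (37.1 and 58.8 CPM, 1.23 to 2.04). Ependymal cells (175 and 261 CPM, ratio 1.495, 1.23 to 1.80) and T or NK cells (2057 and 2379.9 CPM, ratio 1.16, 1.09 to 1.22) stayed under 1.5-fold, so 5 of 7 classes were called. Choroid plexus epithelium (217 and 277 CPM), fibroblasts (428 and 504 CPM) and oligodendrocytes (36.4 and 51.2 CPM), all with too few cells to compare, lay in the same direction by these values. Oligodendrocyte H2-K1 rests on 33 and 18 UMIs. Of its level, an estimated 8.77 and 53.2 CPM can be free microglial RNA. The second value exceeds the whole level after NPs, so the oligodendrocyte direction is not established.

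**Figure D2:**
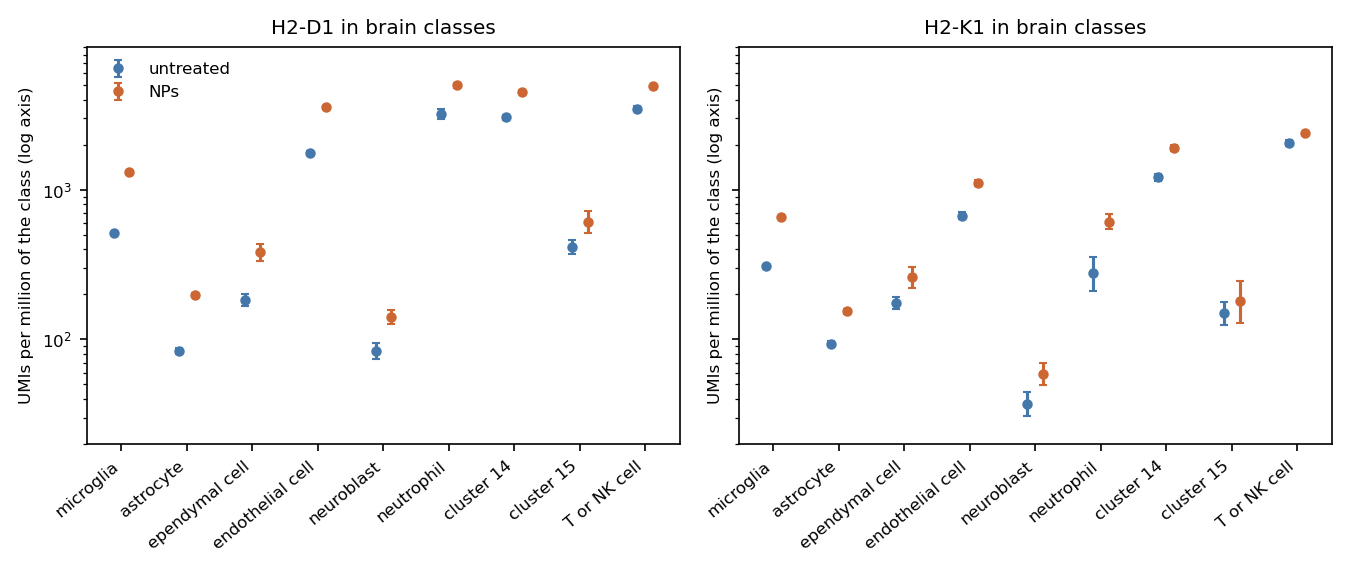
H2-D1 and H2-K1 level (CPM, log axis) in each compared brain class, the unnamed clusters 14 and 15 included, of the untreated and NPs libraries, with exact 95% Poisson intervals for counting error. In all 7 named classes the point after NPs lies above the untreated point, with the widest gap for H2-D1 in microglia (513 and 1314 CPM) and the narrowest for H2-K1 in T or NK cells (2057 and 2379.9 CPM).

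The direction of the brain difference was thus the same in all 7 compared types, while its size varied. In astrocytes and neuroblasts the levels were low, and a part of their UMIs can be free RNA of other cells; with microglial RNA taken off, their H2-D1 ratios were 2.02 and 1.44 and their H2-K1 ratios 1.47 and 1.35. On the log2 scale the H2-D1 ratio ran from 0.50 in T or NK cells to 1.36 in microglia, a spread of 0.86, and the H2-K1 ratio from 0.21 in T or NK cells to 1.15 in neutrophils, a spread of 0.94. Among 1657 genes measured in all 7 classes, 101 (6.10%) were above untreated in every class and 59 (3.56%) were below in every class. Since the set was chosen with the values of H2-D1 and H2-K1 known, these shares are background and nothing is read from them. By the stricter count, 3 genes (0.181%) were called at 1.5-fold higher in all 7 classes and 3 (0.181%) lower, and neither H2-D1 nor H2-K1 was among them. A haplotype that differs between the libraries' animals, or reads that align differently to it, would reach every cell type of a library, as would a treatment that acts on all cells; with 1 library a group these cannot be told apart, and the reads were not examined.

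Few genes of the H2 complex could be followed in every class. Of 421 genes listed in the complex with 1 Mb on either side (45 of them H2 genes), 20 were measured in all 7 classes, and 3 were above untreated in every class: H2-D1, H2-K1 and Hnrnpm. Hnrnpm, an RNA-binding splicing protein, had class ratios of only 0.00 to 0.23 on the log2 scale. No gene of the complex was called at 1.5-fold in every class. Members of the complex that were not measured in all 7 classes are not in that count: H2-Q4 was above untreated in 6 of 6 classes measured, Tap1 in 5 of 5 and H2-Q7 in 3 of 4. H2-T23, measured in all 7, was above untreated in 6. Several genes beside H2-K1 were near 0 in microglia on the same scale, with Tapbp at -0.02, Rps18 at 0.07, Tap2 at -0.14 and Brd2, a chromatin reader, at 0.07, while Tap1, which lies between Brd2 and Tap2, was at 0.43.

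**Figure D3:**
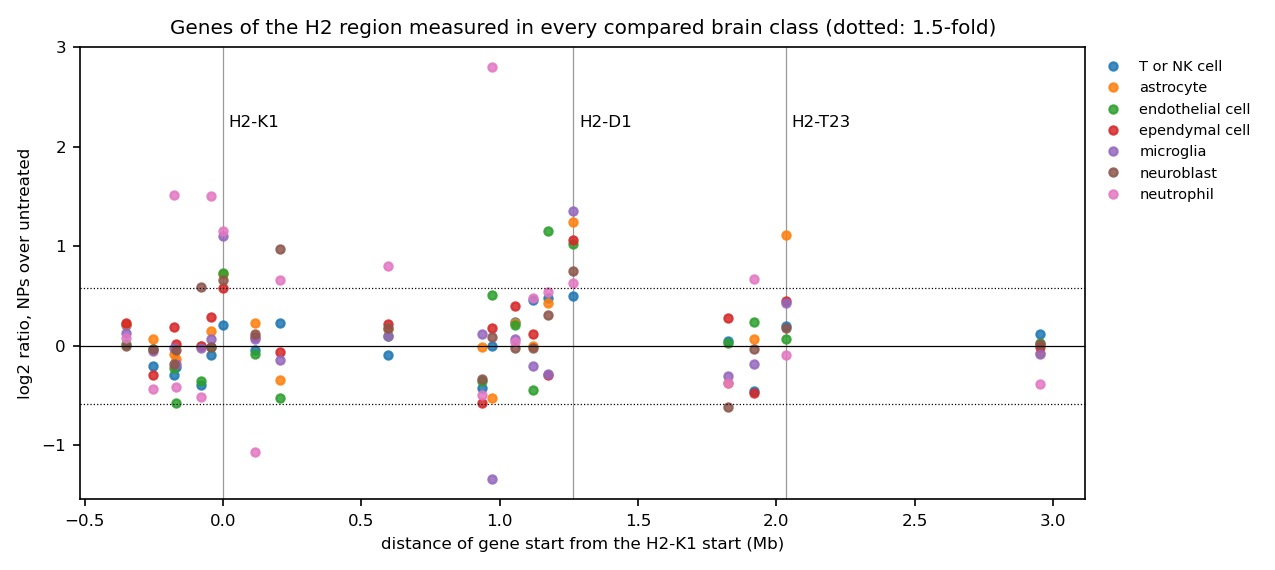
Log2 ratio of NPs over untreated in each of the 7 named brain classes (points) for the 20 genes of the H2 complex and its margins measured in every class, against the distance of the gene's start from that of H2-K1 (x axis, Mb). All points of H2-D1 (0.50 to 1.36) and H2-K1 (0.21 to 1.15) lie above 0, while the other genes, except Hnrnpm, have points on both sides; dotted lines mark 1.5-fold.

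The same direction was found within clusters, which matters because the libraries filled different clusters of a class. Untreated microglia lay mostly in clusters 1 and 7, and microglia after NPs mostly in clusters 0 and 5, while astrocytes were split between cluster 3 (untreated), cluster 4 (NPs) and cluster 2 (both). Of the 14 brain clusters with at least 50 cells in both libraries, H2-D1 was higher after NPs in 14, with 10 called, and H2-K1 in 14, with 11 called. In microglial cluster 6, which the libraries shared almost evenly (763 and 671 cells), the H2-D1 ratio was 2.61 (649 and 1694 CPM) and the H2-K1 ratio 2.33 (364 and 847 CPM). In cluster 1 they were 2.30 and 2.23, and in cluster 7 they were 1.93 and 1.61. In the shared astrocyte cluster 2 they were 2.44 and 1.74. The smallest H2-D1 cluster ratio was 1.26 in astrocyte cluster 13, with an interval from 0.911 to 1.76 that includes 1. The 2 compared clusters without a name were lower on this scale than microglia as well: cluster 14, led by Igkc, Cd74 and Lyz2, had an H2-D1 ratio of 1.48 (3047 and 4495 CPM), and cluster 15, led by Vtn, Acta2 and Tagln, one of 1.46 (416 and 609 CPM).

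More cells held an H2-D1 UMI after NPs at matched depth in microglia, astrocytes, endothelial cells and neuroblasts. With each cell thinned to 1000 UMIs, 34.3% of untreated microglia (33.0% to 35.6%, of 5226 cells) and 60.03% after NPs (58.8% to 61.2%, of 6420 cells) held at least 1, against 76.2% and 91.0% unthinned. The thinned shares were 7.86% and 16.3% in astrocytes and 81.0% and 92.7% in endothelial cells. Neuroblasts, which among the compared classes had the lowest level, gave 4.30% (2.24% to 7.39%) and 14.9% (10.4% to 20.5%). Oligodendrocytes, with too few cells to compare, gave 4.84% (1.80% to 10.2%) and, from 42 cells, 2.38% (0.0603% to 12.6%). The astrocyte share after NPs lay within the neuroblast interval and above the oligodendrocyte one, so whether it exceeds the background of free RNA depends on which class is taken as the floor. Median unthinned depths were 4936.5 and 4703 UMIs in microglia and 9426.5 and 8631 UMIs in neuroblasts. Shallower cells were left out: 122 and 111 microglia, 184 and 114 astrocytes, 13 and 20 endothelial cells and 11 and 13 neuroblasts. The tenth of microglia with the most H2-D1 UMIs held 39.0% of them untreated and 37.7% after NPs. These shares come from unthinned counts at different H2-D1 levels, and counting error alters such a share with the level. They therefore do not compare the spread among cells.

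RNA of microglia reached other cells in both libraries and, in the named classes, by more after NPs. C1qa, a complement gene that microglia make, was found in astrocytes at 2.43% of its microglial level untreated and 4.16% after NPs, and in T or NK cells at 3.93% and 6.46%. With the same share of the microglial H2-D1 level taken off each class, the H2-D1 ratio was 2.02 in astrocytes (71.4 and 144 CPM), 1.99 in endothelial cells, 1.87 in ependymal cells, 1.53 in neutrophils, 1.44 in neuroblasts and 1.40 in T or NK cells. H2-K1 after the same step gave 2.16 in neutrophils, 1.60 in endothelial cells, 1.47 in astrocytes, 1.36 in ependymal cells, 1.35 in neuroblasts and 1.14 in T or NK cells. All 12 ratios stayed above 1, with neuroblasts for H2-D1 and astrocytes and neuroblasts for H2-K1 now under 1.5-fold. After NPs the part taken off H2-D1 was 54.7 of 199 CPM in astrocytes and 45.3 of 141 CPM in neuroblasts. In oligodendrocytes, not among the 12, the part for H2-K1 after NPs (53.2 CPM) exceeded the level itself (51.2 CPM). Free RNA of T or NK cells and neutrophils, whose H2-D1 levels were above those of microglia, was not taken off.

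The ratios were also computed without the cells that held interferon-induced transcripts. Without every cell that held a UMI of any of 10 such genes (among them Isg15, Ifit1, Ifit3, Rsad2 and Irf7), 5 named brain classes could still be compared. H2-D1 was 2.47-fold higher after NPs in microglia (493 and 1215 CPM), 2.27-fold in endothelial cells, 2.19-fold in astrocytes, 2.03-fold in neuroblasts and 1.46-fold in T or NK cells, against 2.56, 2.03, 2.37, 1.69 and 1.41 with all cells. H2-K1 was 2.07-fold higher in microglia, 1.74-fold in endothelial cells, 1.56-fold in astrocytes, 2.42-fold in neuroblasts and 1.20-fold in T or NK cells, against 2.15, 1.66, 1.65, 1.59 and 1.16 with all cells, so neuroblast H2-K1 moved by more than 1.5 times. The cells left out made up 13.2% of untreated microglia and 15.6% after NPs, and 19.3% and 20.6% of astrocytes. The step removed more in other classes: 71.6% and 67.4% of endothelial cells, 44.0% and 41.8% of T or NK cells and 30.3% and 27.6% of neuroblasts. Endothelial cells left numbered 104 and 91, and neuroblast H2-K1 then rested on 42 and 87 UMIs.

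The H2-D1 share of the UMIs of both classical chains shifted in most brain classes. In microglia it was 62.5% untreated (Clopper-Pearson 61.9% to 63.2%, of 23156 UMIs) and 66.5% after NPs (66.1% to 66.9%, of 65508 UMIs). Astrocytes went from 47.2% to 56.3%, ependymal cells from 51.1% to 59.4%, T or NK cells from 62.9% to 67.4% and endothelial cells from 72.3% to 76.1%, with intervals that did not overlap except in ependymal cells, where 54.2% to 64.5% met 47.8% to 54.4%. Neuroblasts (69.3% and 70.5%) had overlapping intervals, and neutrophils went the other way, from 92.1% to 89.0% (89.9% to 93.9% against 87.8% to 90.2%). Within the untreated library alone the share thus ran from 47.2% in astrocytes to 92.1% in neutrophils among the compared named classes. In the intestine the share was also higher after NPs in absorptive epithelium (63.3% and 68.4%), T cells (56.8% and 62.2%) and macrophages or monocytes (56.3% and 60.5%), and had overlapping intervals in goblet cells (58.9% and 59.4%) and plasma cells (56.4% and 56.6%). Of microglia with at least 5 UMIs of the pair (1767 of 5348 untreated and 4210 of 6531 after NPs), most held UMIs of both chains. Among these cells, 9 in each library (0.509% and 0.214%) had no H2-D1 UMI, and 101 and 165 had no H2-K1 UMI.

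**Figure D4:**
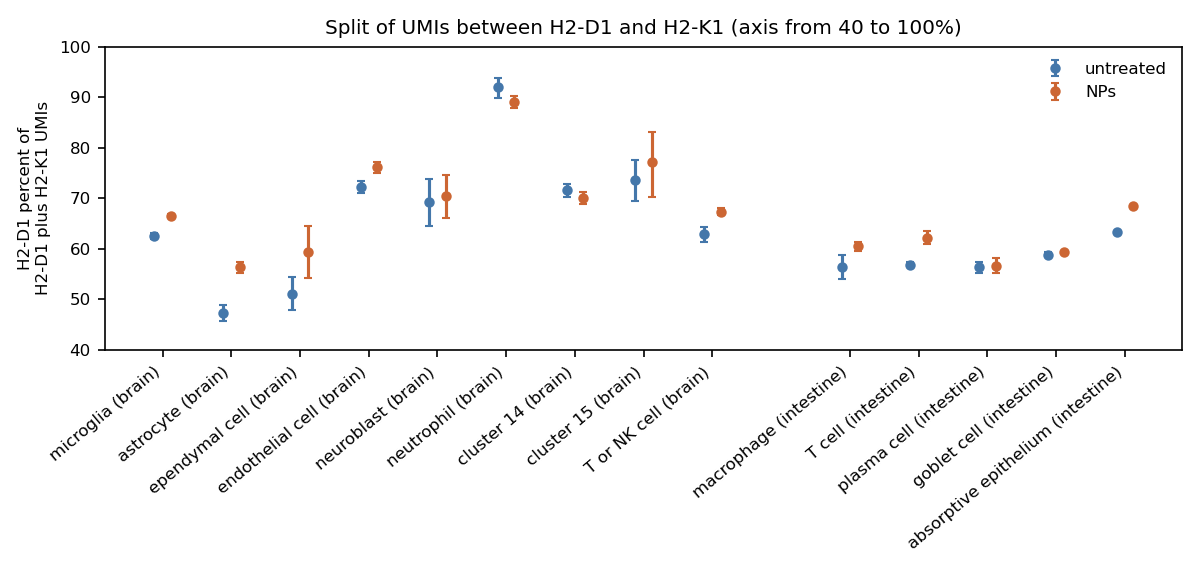
Share of H2-D1 among H2-D1 plus H2-K1 UMIs (percent) in each compared class of brain and intestine for both libraries, with 95% Clopper-Pearson intervals for counting error. Microglia lie at 62.5% and 66.5%, astrocytes at 47.2% and 56.3%, and neutrophils highest at 92.1% and 89.0%.

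The other heavy chains were higher after NPs in fewer brain classes. Qa-1 (H2-T23) was called only in astrocytes, at 4.71 and 10.2 CPM (2.17, 1.70 to 2.78), stood at 72.0 and 96.6 CPM in microglia (1.34, 1.27 to 1.42) and lay below 1 in neutrophils (0.935, 0.588 to 1.52). H2-Q4 was called in astrocytes (2.45, from 47 and 101 UMIs, 1.72 to 3.54) and in T or NK cells (160 and 242 CPM, 1.52, 1.25 to 1.86), while microglia gave 1.16. H2-Q7 was called in microglia (17.1 and 28.0 CPM, 1.64, 1.47 to 1.84), astrocytes (1.59) and endothelial cells (1.57), and did not differ in T or NK cells beyond its interval (457 and 456 CPM, 0.997, 0.882 to 1.13). Some of these transcripts end in sequence that is not theirs alone: of 60-base stretches in the last 500 bases of each transcript, 30.2% for H2-T23, 24.7% for H2-Q4, 4.99% for H2-D1, 3.63% for H2-Q7 and 0 for H2-K1 also occur in other genes. For H2-D1 and most of H2-Q4's partners these are genes outside the H2 family, while the partners of H2-T23 include H2-K1, H2-Q1, H2-Q4 and H2-Bl, that of H2-Q7 is H2-Q5 and those of H2-Q4 include H2-Q6. How the authors' counting split such reads is uncertain.

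B2m, the light chain of class I molecules, was higher after NPs in 6 of the 7 classes. It went from 1214 to 1659.5 CPM in microglia (1.37, 1.35 to 1.39), from 129.8 to 188 CPM in astrocytes (1.45, 1.38 to 1.52) and from 1056 to 1331 CPM in endothelial cells (1.26, 1.19 to 1.34). The only class called was ependymal cells, at 124 and 228 CPM (1.84, 1.49 to 2.27). T or NK cells (1.11, 1.06 to 1.17) and neuroblasts (1.19, 0.992 to 1.42) were close to 1, and neutrophils lay below it (1488 and 1313 CPM, 0.883, 0.770 to 1.01).

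The transporter subunits and tapasin differed from each other in direction. Tap1 was above untreated in 5 of 5 classes measured. It was called in astrocytes (6.80 and 12.5 CPM, 1.83, 1.49 to 2.26) and, from 7 and 29 UMIs with an interval that includes 1, in neutrophils (1.81, 0.775 to 4.89); microglia gave 1.34 (1.22 to 1.49). Tap2, its partner, was lower after NPs in 4 of 7 classes, with 0.905 in microglia (53.1 and 48.1 CPM, 0.842 to 0.971), 0.785 in astrocytes (0.711 to 0.867) and 0.696 in endothelial cells (0.543 to 0.887). Tap2 was called higher in neuroblasts (13 and 18 UMIs) and neutrophils (8 and 29 UMIs), where both intervals include 1. Tapbp was below 1 in 6 of 7 classes, with 0.986 in microglia (161 and 158 CPM, 0.948 to 1.03), and was called only in neuroblasts (1.503, 0.989 to 2.29).

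Nlrc5 was sparse in brain, and it was measured in 3 of the 7 named classes. Microglia held 51 Nlrc5 UMIs untreated and 150 after NPs (1.81 and 4.52 CPM, ratio 2.50, 1.81 to 3.51), and astrocytes held 11 and 48 (0.499 and 2.48 CPM, ratio 4.97, 2.55 to 10.6). T or NK cells, where its level was higher than in either glial class, gave 37.0 and 38.3 CPM (1.03, 0.668 to 1.64). By these values Nlrc5 was higher after NPs in the 2 glial classes and did not differ beyond its interval in T or NK cells. Its glial levels are low beside that of T or NK cells, and the part of free RNA in them was not tested.

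Counted by class, members called higher at 1.5-fold in brain after NPs numbered 4 of 10 in microglia (4.84% of all measured genes were), 7 of 10 in astrocytes (7.87%), 3 of 9 measured in endothelial cells (6.59%), 2 of 6 in ependymal cells (6.71%), 4 of 7 in neuroblasts (4.40%), 4 of 8 in neutrophils (11.0%) and 1 of 10 in T or NK cells (13.8%). None was called lower in these classes, where 9.94%, 5.52%, 7.32%, 9.80%, 7.86%, 17.9% and 5.60% of all measured genes were. Of the calls higher, Tap2 and Tapbp in neuroblasts and Tap1 and Tap2 in neutrophils had intervals that include 1. With microglial RNA taken off, H2-D1 (1.44) and H2-K1 (1.35) in neuroblasts and H2-K1 in astrocytes (1.47) fell under 1.5-fold. The members' median log2 ratio was 0.80 in astrocytes against 0.06 over all measured genes, 0.44 in microglia against 0.01, and 0.20 in T or NK cells against 0.08. Over all kept brain cells together, a mixture of types, 8 of 10 members were called higher and 0 lower (6.88% and 15.6% of measured genes), H2-D1 from 427 to 1146 CPM. Over all named classes, 25 of 60 measured pairs of member and class were called higher, of which 6 were H2-D1 and 5 were H2-K1. The shares by class above are the background, and no pooled share was computed. The count in T or NK cells lies near its background, and the members were chosen with the brain values of H2-D1 and H2-K1 known. Among unnamed clusters, 2 of 9 measured members were called higher in cluster 14 (11.7%), and 0 of 5 higher (10.8%) and 1 of 5 lower (9.78%) in cluster 15, the latter being Tapbp from 69 and 9 UMIs.

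**Figure D5:**
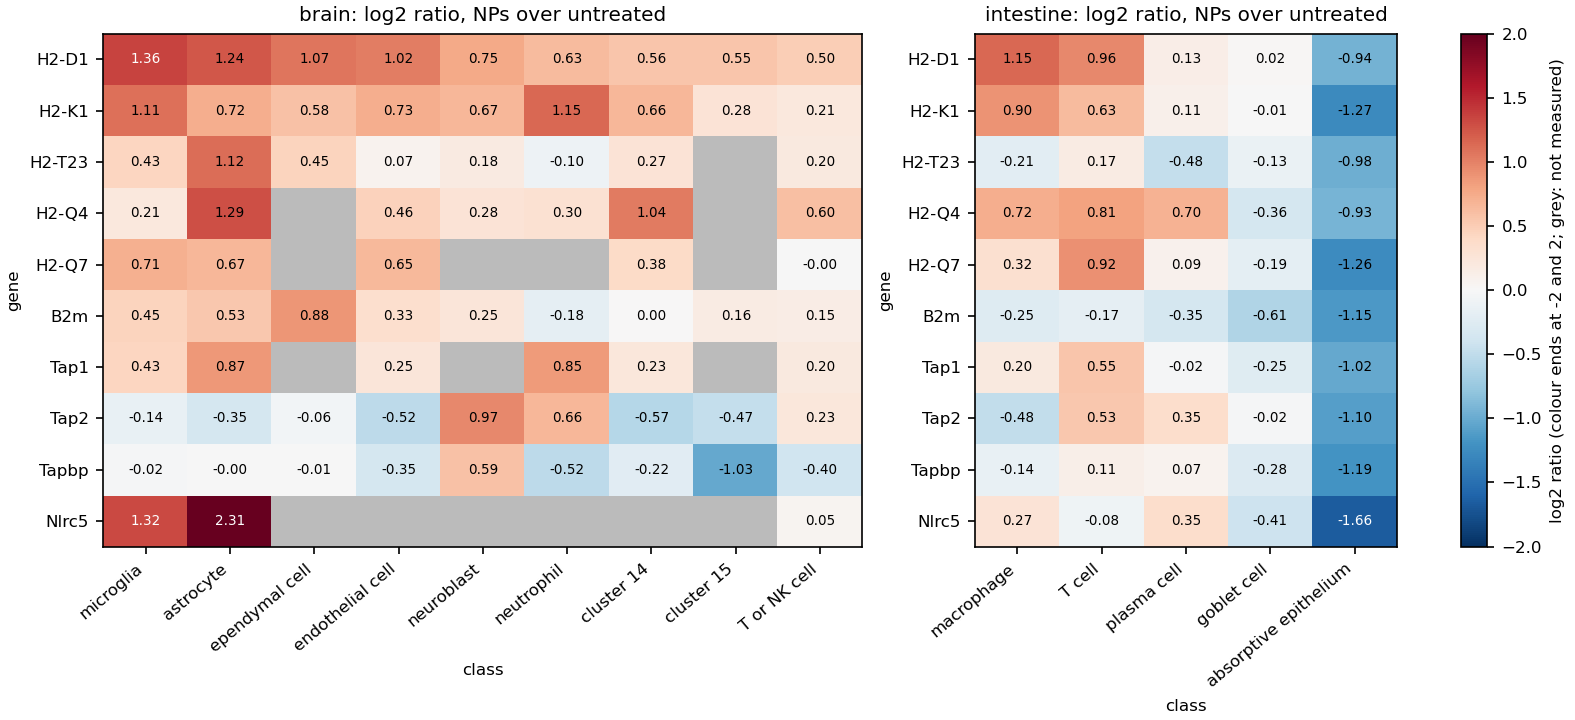
Log2 ratio of NPs over untreated for each member (rows) in each compared class of brain and intestine (columns), with colour for size and direction and unmeasured pairs in grey. H2-D1 and H2-K1 are above 0 in all 7 named brain classes, and all 10 members are below 0 in absorptive epithelium.

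Among other genes of the pathway in microglia, calls were found mainly in the heavy chains. Of 18 listed other class I chains, 12 were measured and 4 were called higher, where 4.84% of all measured genes were: H2-M2 (1.70, from 8 and 16 UMIs), H2-Q6 (1.68), H2-M3, which presents formylated peptides (1.67), and H2-Q2 (1.64). The neonatal Fc receptor chain Fcgrt was the lowest of them at 0.814. Of 14 peptide-supply and loading genes, all measured, none was called higher and 1 lower, the translocon subunit Sec61b (1.62-fold lower). The proteasome activator copy Psme2b (1.28), the protease Sppl2a (1.16) and the tapasin relative Tapbpl (1.15) had the highest ratios, and the chaperones Pdia3 (0.914) and Calr (0.922) lay near 1. Of 21 transcription and interferon-input genes, 20 were measured and none was called in either direction, with Stat2 (1.38) and Irf1 (1.28) at the top and Rfxank (0.861) at the bottom.

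Astrocytes had calls in all 3 lists, where 7.87% of all measured genes were called higher. The other class I chains gave 2 of 8 measured (H2-Q6, 2.58, from 15 and 34 UMIs, and H2-M3, 1.88), and peptide supply gave 3 of 14: Psme2b (3.42, from 12 and 36 UMIs) and the immunoproteasome subunits Psmb9 (1.74) and Psmb8 (1.52). Transcription and interferon input gave 3 of 20, namely Irf8 (1.86), Irf1 (1.66) and Nfya (1.63). Irf8 is a myeloid factor, and the C1qa level in astrocytes was also higher after NPs (208 and 370.3 CPM); the part of microglial RNA in the Irf8 value was not tested.

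In the intestine, all 10 members were lower after NPs in absorptive epithelium, the opposite of the brain direction of H2-D1 and H2-K1. H2-D1 was 1.92-fold lower after NPs (3321 and 1733 CPM), H2-K1 2.41-fold lower (1928 and 799 CPM) and B2m 2.22-fold lower (4445 and 2005 CPM). Nlrc5 was 3.16-fold lower (27.9 and 8.83 CPM, 95% interval of the fold 2.83 to 3.55). Folds of the other members were 2.39 for H2-Q7, 2.29 for Tapbp, 2.14 for Tap2, 2.03 for Tap1, 1.98 for H2-T23 and 1.91 for H2-Q4. All 10 were called lower, where 14.9% of 15404 measured genes were, and none higher, where 42.2% were; the members' median was -1.12 against 0.42 over all measured genes. The cells differed in more than treatment: the class lay mostly in clusters 0 and 6 untreated and 3 and 15 after NPs, its median depth was 3120 and 11574 UMIs per cell, and no single cluster held 50 of its cells from both libraries. At 1000 UMIs per cell, 93.4% of untreated and 78.1% of absorptive cells after NPs held an H2-D1 UMI (97.4% and 99.2% unthinned), so the direction at matched depth was also lower.

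T cells and macrophages or monocytes of the intestine had H2-D1 and H2-K1 called higher after NPs, and plasma cells did not. B cells and mast cells or basophils, with 1 and 7 cells after NPs, were not compared. In T cells H2-D1 went from 1983 to 3852 CPM (1.94, 1.88 to 2.01) and H2-K1 from 1508 to 2341 CPM (1.55, 1.49 to 1.62), and H2-Q7 (1.89) and H2-Q4 (1.75) were called too: 4 of 10 members, where 18.7% of measured genes were called higher and 8.83% lower. The libraries filled the T cell clusters in different proportions (723 and 47 cells in cluster 13), and within the 2 clusters that could be compared H2-K1 was under 1.5-fold, at 1.45 in cluster 10 and 1.38 in cluster 9, while H2-D1 was at 1.67 and 1.998. In macrophages or monocytes H2-D1 (1860 and 4119.6 CPM, 2.21, 2.07 to 2.37), H2-K1 (1.86, 1.73 to 2.02) and H2-Q4 (1.65) made 3 of 10 (23.4% of genes higher, 21.1% lower). That count lies near its background share. Plasma cells had 1 of 10, H2-Q4 at 1.63 (23.6% higher, 15.3% lower), with H2-D1 at 1.09 (1.04 to 1.15). Goblet cells had H2-D1 at 2034 and 2068 CPM (1.02, 1.00 to 1.03), no member called higher (25.8% of genes) and 1 lower (11.0%), B2m at 1.52-fold. Over all kept intestinal cells, 0 members were called higher (32.5% of measured genes) and 4 lower (17.5%): B2m, H2-T23, Nlrc5 and Tapbp. B2m was below untreated in all 5 intestinal classes, so its direction differed from that of H2-D1 in T cells and macrophages or monocytes. In goblet and plasma cells the H2-D1 ratio had no stable direction. Under alternative processing it ran from -0.16 to 0.29 and from -0.05 to 0.20 on the log2 scale. Untreated and NPs cells lay mostly in different clusters here as well for goblet cells (cluster 7, and clusters 1, 5 and 22).

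The pathway lists of absorptive epithelium are read against the 14.9% of all measured genes called lower there and the 42.2% called higher. Of 14 measured other class I chains, 9 were called lower, led by H2-Q1 (6.06-fold), Cd1d1, which presents lipids (5.84-fold), and H2-Q2 (4.68-fold), and 2 higher, H2-T3, the thymus leukaemia antigen (9.34-fold), and Fcgrt (2.81-fold). Peptide supply had 4 of 14 lower, among them Psmb9 (2.52-fold), Psme2 (1.65-fold) and Psme2b (1.55-fold), and 1 higher, the chaperone Canx (1.77-fold). Transcription and interferon input had 5 of 21 lower, among them Stat2 (2.84-fold) and Ifngr1 (2.01-fold), and 4 higher, among them Rfxap (2.31-fold), Irf8 (1.79-fold) and Ifnar1 (1.65-fold). The medians of the 3 lists were -1.28, -0.30 and -0.22 on the log2 scale, against 0.42 over all genes measured in the class.

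Across all 38 sums of class and library with at least 50 cells, the genes whose level ran most like that of H2-D1 were other members. Pearson's r of log2(CPM + 10) was 0.926 for H2-T23, 0.925 for H2-Q4, 0.914 for B2m and 0.911 for H2-K1, followed by the interferon-induced gene Parp14 at 0.907, among 10582 genes considered. For H2-K1 the 5 highest were H2-T23 (0.948), B2m (0.943), H2-Q6 (0.943), H2-Q7 (0.925) and Tap1 (0.925). Tap2 (0.670) and Nlrc5 (0.653) ran least like H2-D1 among the members. These sums share 4 libraries and differ in depth, so the values describe the order of cell types and carry no test.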

How the data were processed

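Single-cell 3′ RNA libraries (10x Genomics) of mouse intestine and brain were deposited as count matrices: whole-number UMI counts per gene and barcode, made by the authors with Cell Ranger 5.0.1 and the GRCm38 build, per the submitters' processing notes. The matrices hold only barcodes with at least 500 UMIs; reads were not used, and the aligner's treatment of reads shared between class I genes is not given in the sources used here. The tissue was cut, digested with collagenase, papain and DNase, and freed of red and dead cells, per the labels' protocols. All 55450 gene IDs matched the GENCODE annotation used for coordinates.

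From these counts, barcodes had to pass 3 limits: no fewer than 500 UMIs, no fewer than 200 genes, and no more than 20% of UMIs from mitochondria. Doublets were removed with Scrublet, with a fixed score of 0.25 for intestinal cells because the automatic one marked under 0.5%; 0.660% to 2.87% of cells were removed. Both libraries of each tissue went into 1 clustering (scanpy 1.11.5, 2000 variable genes, 30 components, 15 neighbours, Leiden resolution 1). A cluster was named where at least 3 markers of a type were 2-fold over the median of that library's clusters; this reference was chosen after the first clusters were seen. UMIs were summed per class and library, and the ratio NPs over untreated was given with an exact 95% interval (conditional binomial; Clopper-Pearson for shares; Poisson for levels; scipy 1.17.1). A gene was measured where at least 10 UMIs were expected in each library, and called at 1.5-fold. With 1 library per group there is no replicate and no p-value; intervals cover counting error only. The comparison was tested on simulated data. The named genes are all 10 members, up to 3 highest and 3 lowest of each pathway list in microglia and absorptive epithelium, and the 5 genes most like H2-D1 and H2-K1; cells, genes and clusters named beyond that rule were chosen after their values were seen. The members, lists and tests were chosen with earlier results of these data known. Alternatives in filters, clustering, depth, scaling and thresholds were run for every ratio. A gene of the transcription and interferon list is not reported here.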

Additional observations from a re-analysis of the deposited data

Results flagged for a closer look

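Over all kept cells, 9 of the 10 members, Tap2 excepted, lay above untreated in brain and below untreated in intestine after NPs. For 3 of them the ratio passed 1.5-fold in both tissues, and the difference between the tissues was not tested. B2m had a log2 ratio of 0.72 in brain and -0.79 in intestine, a difference of 1.51 (6.88% of measured genes were called higher in brain and 17.5% lower in intestine). H2-T23 had 0.68 and -0.60, a difference of 1.29. Nlrc5 had 1.36 and -1.14, a difference of 2.50, from 125 and 295 UMIs in brain and 2204 and 986 in intestine. These values pool all cell types. By class, B2m was called in brain only in ependymal cells and H2-T23 only in astrocytes. In microglia their ratios were 1.37 and 1.34, under 1.5-fold. The libraries also differ in exposure time and in the cell types they hold, and these cannot be told apart from tissue.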

How the results depend on the processing

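No paired analysis was possible because each group holds 1 library. For the 44 ratios of a member in a class called at 1.5-fold, 583 of 584 values under the alternatives kept their direction. The exception was H2-Q4 in intestinal macrophages or monocytes, at -0.71 (log2) with cells thinned to 1000 UMIs, and the cause was not tested. Alternatives that change only the fold threshold or the UMIs expected leave a ratio as it was, so their values could not turn. Apart from the settings named next, the number of brain classes called stayed within 1.5 times the value reported for both H2-D1 and H2-K1. Called at 2-fold, H2-K1 passed in 2 classes, and 10 brain pairs of member and class were higher, 1 intestinal pair was higher and 7 were lower. With microglial RNA taken off, H2-K1 passed in 3 classes. With each cluster of at least 50 cells in both libraries on its own, H2-D1 passed in 10 and H2-K1 in 11 of 14 clusters. In that setting 38 brain pairs were higher and 2 lower, and 0 intestinal pairs were lower, since no absorptive cluster qualified. Shares of all measured genes called were not computed under the alternatives, so these pair counts have no background beside them. Brain pairs called lower were 0 as reported, 1 with doublets kept, 1 at resolution 2, 2 with thinned cells and 2 with means over cells. Thinned cells made 1 gene of the H2 complex, H2-D1, pass in every one of the 6 brain classes still compared, against 0 as reported, and put neuroblast H2-D1 at 1.75 (log2) against 0.75. The rise of the H2-D1 share in microglia, 3.96 percentage points, was 4.75 with doublets kept, 5.00 with thinned cells and 4.70 over cells with at least 10 UMIs of the pair. Splitting microglia by Xist and Y-linked UMIs gave no value for cells with Y-linked UMIs alone. Depth limits Nlrc5, Tap1, H2-Q4 and H2-Q7 in the small brain classes, where fewer than 10 UMIs were expected.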

Other observations

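Levels in clusters that 1 brain library nearly filled could not be compared between libraries, and are given as values. Microglial cluster 0, with 4100 cells after NPs and 39 untreated, held H2-D1 at 1129.7 CPM and H2-K1 at 591 CPM. Microglial cluster 5, with 1523 cells after NPs and 13 untreated, held 1505 and 716 CPM. Astrocyte cluster 4, with 1773 cells after NPs and 20 untreated, held 139 and 125 CPM. Both microglial clusters thus lay above the untreated microglial levels of 513 CPM for H2-D1 and 308 CPM for H2-K1.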
